A study of Caenorhabditis elegans with 4 samples.

Results

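The genes described here are 100 protein-coding genes of Caenorhabditis elegans that are listed under a sequence name, such as T03D3.5, in place of a genetic name, and whose transcripts were strongly lower in whole worms lacking normal cey-1 and cey-4. They were chosen from the readout itself. A gene entered when its symbol was a sequence name, its mean level in N2 was at least 3 CPM (the count over the library's total, times 1000000), and the lower of the N2 values was at least 1.6 times the higher of the mutant values. C44B9.2 and Y39A1C.1 were left out by name. The gene table listed 20182 genes, of which 8015 had a sequence name and 3534 of those reached 3 CPM in N2. The 100 genes are thus 2.83% of the sequence-named genes at that level. There were 2 libraries of the mutant strain, which is labelled cey-1 (rrr12), cey-4 (ok858), and 2 of N2, the laboratory wild type. All were total RNA from whole young adults, raised from hatched larvae on OP50 bacteria, and the same lysates were used for ribosome profiling, which is not analysed here. What each allele does to its protein is not stated in the labels, and neither is whether the libraries of a strain came from separate cultures.

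A sequence name is built from the name of the genomic clone on which a gene was found and a running number, so genes that share the part before the dot lie close together. Such genes were found by prediction or from transcripts, and a genetic name is usually given only once something is known of a gene. Both mutated genes belong to the Y-box family, whose proteins coat mRNA through a cold-shock domain. As background to the positions given below, the X chromosome of this species is transcribed far less than the autosomes through most of the germline, so that much of its RNA in a whole worm comes from somatic tissue.

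The mutated genes were low in the libraries that carry the mutant label. Transcripts of cey-4 were counted 338 and 280 times in the mutant, against 23072 and 23781 times in N2. For cey-1 the counts were 723 and 609 in the mutant and 4218 and 4042 in N2. Library totals ran from 24717311 to 33009708 counts, and the lowest count of any member in any library was 25 (B0238.12 in mutant replicate 2). Counting error adds to the spread between libraries in weakly counted members such as T28A11.2, with 89 and 74 counts in the mutant. Because whole worms were sequenced in bulk, fewer cells of a type and less RNA per cell cannot be told apart.

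**Figure D1:**
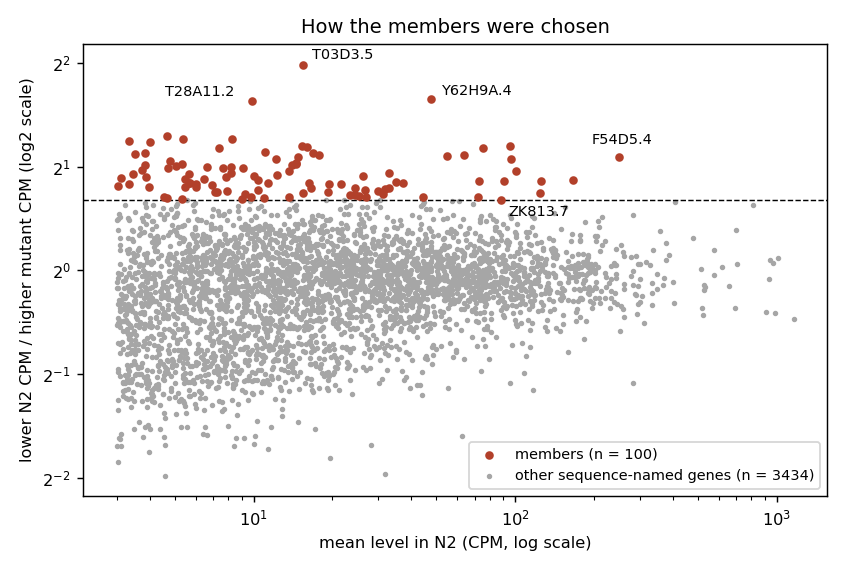
Mean N2 level (CPM, log scale) against the lower N2 value over the higher mutant value (log2 scale) for each sequence-named gene of at least 3 CPM, with the ratio of 1.6 as a dashed line. The 100 members (red) lie above the line at all levels from 3.03 to 249 CPM, T03D3.5 is highest with a ratio of 3.96, and the 3434 other genes (grey) lie below it.

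Since the rule used the difference between mutant and N2, that difference is given here as a description and was not tested for the members. Across the 100 genes the ratio ran from 1.61 to 3.96 with a median of 1.84. It was at least 2 in 31 genes, at least 3 in 3 genes and below 1.8 in 43, so most members lay nearer to the boundary than to the top. The genes just inside the boundary were ZK813.7, D1044.1 and M176.5, with ratios of 1.605, 1.608 and 1.615. D1044.1, for example, had 4.18 and 5.10 CPM in the mutant and 8.20 and 9.84 CPM in N2. The genes just outside it were F21C10.9, ZK622.5 and T21D12.12, with 1.5999, 1.5996 and 1.598, and T21D12.12 had 13.2 and 10.5 CPM in the mutant and 21.1 and 23.1 CPM in N2. Genes on either side of the boundary thus differed by hardly anything. At the level boundary ZK105.6 and F53C11.9, with N2 means of 3.03 and 3.11 CPM, were inside, and C38C3.4 and B0416.7, with 2.86 and 2.84 CPM, were outside.

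The gene with the largest ratio was T03D3.5 (WBGene00020183). Its level was 3.64 and 3.76 CPM in the mutant libraries, against 16.1 and 14.9 CPM in N2. The replicates of each strain lay close together and the strains were far apart, with a log2 fold change of mutant over N2 of -2.09 ± 0.14 (SE). In the Ensembl annotation of WBcel235 the gene spans chromosome V, 2823806 to 2826835, on the minus strand. The sources used here do not name the build the authors counted on, and every position printed is from that annotation.

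Y62H9A.4 (WBGene00013392), on the plus strand of chromosome X at 11880126 to 11881226, had 13.8 and 11.8 CPM in the mutant and 43.3 and 52.1 CPM in N2. T28A11.2 (WBGene00020869), on the plus strand of chromosome V at 3280379 to 3281167, had 2.70 and 2.99 CPM in the mutant and 9.27 and 10.4 CPM in N2. Together with T03D3.5 these are the only members with a ratio of at least 3, and the strains lay far apart in both. The log2 fold changes were -1.92 ± 0.13 for Y62H9A.4 and -1.82 ± 0.16 for T28A11.2. C09B8.4 on chromosome X had 2.00 and 1.13 CPM in the mutant and 4.80 and 5.91 CPM in N2. Its mutant libraries differed from each other more than in most members, and its log2 fold change of -1.76 ± 0.24 carries one of the largest errors.

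The next ratios belonged to weakly counted genes. C16D9.1 had 1.70 and 1.34 CPM in the mutant, against 4.16 and 5.17 CPM in N2. T16G1.7 had 1.58 and 1.29 CPM in the mutant and 4.30 and 3.705 CPM in N2. Y76B12C.8 had 1.09 and 1.21 CPM in the mutant and 2.89 and 3.77 CPM in N2. That the strains do not overlap in these genes is a condition of the rule. The log2 fold changes of C16D9.1, T16G1.7 and Y76B12C.8 were -1.63 ± 0.21, -1.49 ± 0.21 and -1.56 ± 0.23. R05A10.2 on chromosome IV had closely matching replicates in both strains, with 3.42 and 3.32 CPM in the mutant and 8.397 and 8.21 CPM in N2 (-1.32 ± 0.15). F57C2.4 on chromosome II had 6.48 and 4.53 CPM in the mutant and 15.8 and 14.9 CPM in N2, a log2 fold change of -1.49 ± 0.16.

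Among the members with the highest counts, F54D5.4 (WBGene00010050, chromosome II, 11569818 to 11571004, plus strand) stood first. It had 117 and 85.8 CPM in the mutant, and the N2 libraries gave 248.8 and 248.95 CPM, almost the same value (log2 fold change -1.32 ± 0.13). T04F8.8 (WBGene00011446, chromosome X, 11647465 to 11648196, plus strand) had 75.5 and 67.5 CPM in the mutant and 138 and 195 CPM in N2. Here the N2 libraries were far apart, and their spread of 40.1 CPM (SD, n = 2) was the widest N2 spread of any member relative to its mean. The lower N2 value was 1.83 times the higher mutant value, where the rule asks for at least 1.6 in every member.

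F25E2.2 on chromosome X had 70.8 and 66.7 CPM in the mutant, against 118.8 and 131 CPM in N2. Its log2 fold change of -0.89 ± 0.09 was among the smallest of the members, and its error was the smallest. Y57G11B.5 on chromosome IV had 67.8 and 61.2 CPM in the mutant and 123 and 129 CPM in N2 (-0.99 ± 0.09). ZK105.1 on chromosome V had 48.3 and 38.9 CPM in the mutant and 93.9 and 107 CPM in N2 (-1.23 ± 0.12). F55B11.2 on chromosome IV had 31.6 and 23.9 CPM in the mutant and 71.5 and 78.6 CPM in N2, and with -1.46 ± 0.13 it had the largest change among the 10 members with the highest counts. F55H12.4 on chromosome I had 49.1 and 43.5 CPM in the mutant and 89.4 and 92.3 CPM in N2 (-0.998 ± 0.10).

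A level per length orders these genes differently. With counts divided by summed exon length, F54D5.4 had 163 CPM per kb in the mutant and 400.2 CPM per kb in N2, and T04F8.8 followed with 114 in the mutant and 265 in N2. The short gene ZK813.7 came next, with 104 CPM per kb in the mutant and 229.9 CPM per kb in N2, ahead of Y57G11B.5 with 89.1 in the mutant and 174 in N2. F25E2.2, a longer gene, had 30.6 CPM per kb in the mutant and 55.7 CPM per kb in N2. The median over all members was 6.19 CPM per kb in the mutant and 13.5 CPM per kb in N2. For the 3434 other sequence-named genes of at least 3 CPM the medians were 15.5 CPM per kb in the mutant and 14.8 CPM per kb in N2. Not corrected for length, the N2 median was 11.24 CPM in members and 17.4 CPM in those other genes, so the members were low in counts but near the others per length.

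**Figure D2:**
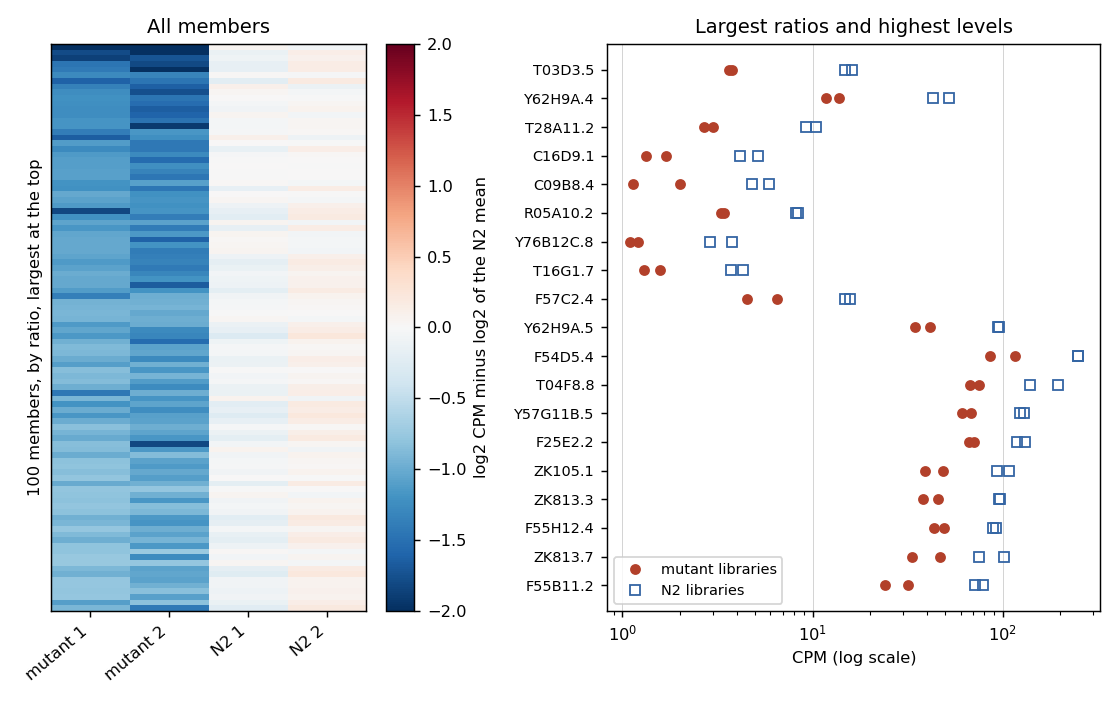
Left, log2 CPM of each member in the 4 libraries minus the log2 of its N2 mean, with members ordered by ratio; right, CPM (log scale) of the members with the 10 largest ratios or the 10 highest counts, red circles for mutant and blue squares for N2 libraries. The mutant columns are blue throughout, the second deeper than the first in 81 of 100 members, and at right no gene's mutant points reach its N2 points. The rule itself requires the blue mutant columns and the gap at right.

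As a group the 100 genes took 0.128% and 0.110% of all counts in the mutant libraries, against 0.247% and 0.274% in N2. Mean levels ran from 1.15 to 101 CPM in the mutant, with a median of 5.19 CPM, and from 3.03 to 249 CPM in N2, with a median of 11.24 CPM. Their median log2 fold change was -1.13, with a range from -2.09 to -0.79, where the median over all 13944 genes tested was -0.01. In the fit across all genes (quasi-likelihood test of edgeR, threshold 0.05 on p-values adjusted after Benjamini and Hochberg) all 100 members passed as lower, as did 13.3% of the genes tested. The rule had already required non-overlapping groups with N2 higher, a condition met by 30.6% of the genes tested, so the count adds nothing to the choice. Over all genes 1858 were called lower, but 874 without mutant replicate 1 and 447 without mutant replicate 2. Members were spread over all levels. They made up 17 of 475 sequence-named genes between 3 and 5 CPM (3.58%), 28 of 724 between 5 and 10 CPM (3.87%) and 33 of 1085 between 10 and 30 CPM (3.04%). Higher up they were 17 of 897 between 30 and 100 CPM (1.90%) and 5 of 353 above that (1.42%), so the share was lower among strongly counted genes. The 5 were F54D5.4, T04F8.8, Y57G11B.5, F25E2.2 and ZK105.1.

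The same ratio in genes with a genetic name, at the same level, was reached by 93 of 6215 (1.5%). In the opposite direction, with the lower mutant value at least 1.6 times the higher N2 value, 208 of the 3534 sequence-named genes qualified (5.89%). Strong differences in sequence-named genes were thus more often higher than lower in the mutant, and the 100 members are the smaller of these sets.

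Position on the chromosomes was not part of the rule, and the members were unevenly placed. Chromosome X carried 26 of the 100 members and 12.2% of the sequence-named genes of at least 3 CPM, and chromosome V carried 29 members and 17.7% of those genes. Put as a share of the genes present, 26 of 431 on X (6.03%) and 29 of 624 on V (4.65%) were members. Chromosome IV had 16 of 639 (2.504%) and II had 14 of 613 (2.28%). Chromosomes I and III had the fewest, with 8 of 639 (1.252%) and 7 of 588 (1.19%). No test was made over genes, which are not independent replicates of the strain difference.

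Among genes with a genetic name X and V also stood above the other chromosomes, though by less and with X just under V. By the same ratio 19 of 788 on X (2.41%) and 26 of 1040 on V (2.5%) were lower, against 48 of 4387 on I to IV together (1.09%). In the opposite direction X had the smallest share, with 5 of 431 sequence-named genes higher in the mutant (1.16%), where 27 of 624 on V (4.33%) and 176 of 2479 on I to IV (7.10%) were higher. The sequence-named genes that are not members also differed by chromosome, with a median log2 fold change of -0.12 on X, -0.04 on V and -0.02 on I to IV together. Members themselves had median log2 fold changes of -1.14 on X, -1.18 on V and -1.10 on I to IV. The rule cut members of every chromosome at the same ratio, so these medians say nothing of the size of change by chromosome.

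**Figure D3:**
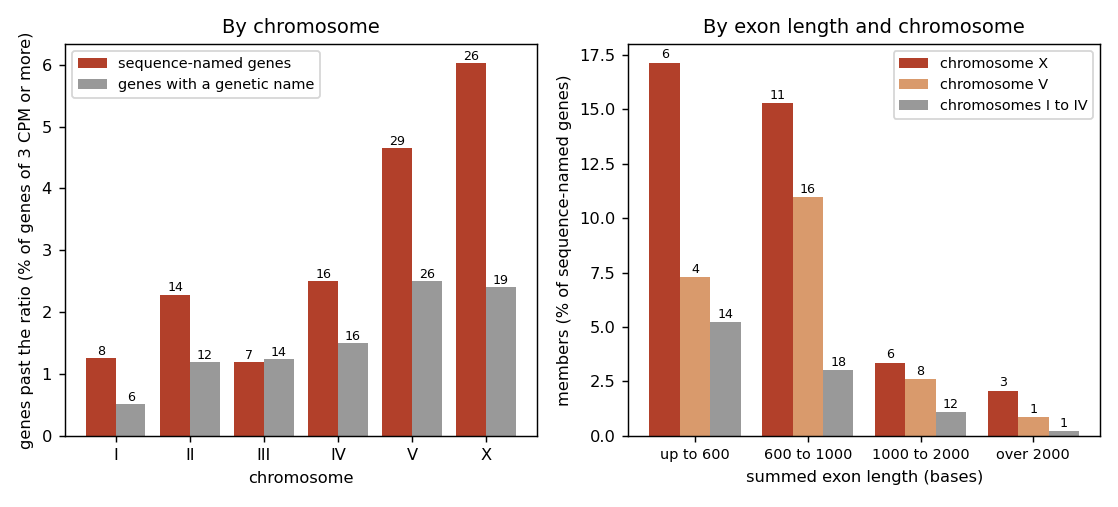
Left, percent of genes of at least 3 CPM in N2 that were lower by the ratio of 1.6, by chromosome, for sequence-named genes (red, the members) and genes with a genetic name (grey); right, percent of sequence-named genes that are members, by summed exon length and chromosome. Numbers above bars count genes; X reaches 6.03% at left, and within each length class at right X is highest and chromosomes I to IV lowest.

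The members were short genes of simple structure. Their summed exon length had a median of 770.5 bases, with quartiles of 614.75 and 1097.5 bases, while the other sequence-named genes of at least 3 CPM had a median of 1295 bases. An exon length of up to 1000 bases was found in 69 of 100 members and in 32.2% of the others. The coding part had a median of 603 bases in members and 1032 bases in the others. At most 3 exons were annotated in 51 members, against 18.96% of the others, and the median number of exons was 3 in members and 6 in the others. Single-exon members were W02D9.7, F28D1.6 and ZK813.7. Only 5 members exceeded 2000 bases of exon, namely H03A11.2, C35E7.5, B0238.12, F25E2.2 and C16E9.1, against 22.1% of the others.

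Since the members were short, position was also compared within classes of exon length. Among sequence-named genes of 600 to 1000 bases, members were 11 of 72 on X (15.3%), 16 of 146 on V (10.96%) and 18 of 599 on I to IV (3.01%). Up to 600 bases they were 6 of 35 on X (17.1%), 4 of 55 on V (7.27%) and 14 of 268 on I to IV (5.22%). From 1000 to 2000 bases the shares were 3.35% on X, 2.61% on V and 1.08% on I to IV. X thus had the highest share in each length class and genes of up to 1000 bases had higher shares than longer ones on each set of chromosomes. In genes with a genetic name of 600 to 1000 bases the shares lower by the same ratio were 10.8% on X, 5.88% on V and 2.899% on I to IV. Up to 600 bases they were 12.8% on X, 12.5% on V and 4.23% on I to IV, and from 1000 to 2000 bases 1.96%, 1.66% and 0.731%. Over 2000 bases the order did not hold, with 0 of 369 on X, 0 of 342 on V and 5 of 1704 on I to IV.

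With each library's trend on exon length removed, the median log2 fold change of the members was -0.98 in place of -1.13, with a range from -2.06 to -0.58. Applied to values corrected in this way, the rule took 86 genes, of which 82 were among the 100. Of the 86, 22 lay on X and 27 on V, and their median exon length was 881.5 bases. T03D3.5 hardly moved (-2.06), Y62H9A.4 was at -1.73 in place of -1.92, and the long genes C35E7.5 and H03A11.2 came out further down, at -1.46 and -1.14 where the uncorrected values were -1.29 and -0.98. How much of the members' difference goes with length and how much with strain was not tested.

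Some members were neighbours. The 100 genes carried 95 clone names, and 4 of these, Y62H9A, ZK813, ZK105 and D1086, were shared by 9 members. On chromosome X, Y62H9A.3, Y62H9A.4 and Y62H9A.5 lie side by side, with gaps of 154 and 917 bases and no protein-coding gene between them. Y62H9A.3 had 15.6 and 12.4 CPM in the mutant and 29.99 and 35.9 CPM in N2 (log2 fold change -1.25 ± 0.14). Y62H9A.5 had 41.2 and 34.6 CPM in the mutant and 95.7 and 94.6 CPM in N2 (-1.35 ± 0.11). The 3 genes are not on the same strand, since Y62H9A.4 is read from the plus strand and its neighbours from the minus strand.

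The next gene along, ule-5 (WBGene00013394, 11883127 to 11884042, plus strand), has a genetic name and so could not be a member. The ule class was named for proteins found in the lumen of the uterus. Singled out after its values were seen, ule-5 had 77.7 and 62.3 CPM in the mutant and 222 and 220.2 CPM in N2, a log2 fold change of -1.69 ± 0.11 (edgeR, calls and values from the fit across all genes). The adjoining genes on either side of this run, Y62H9A.2 and Y62H9A.7, had no count in any of the 4 libraries. The low values therefore covered a run of 4 neighbouring genes that ends, on both sides, at genes without reads. Further out on the clone, Y62H9A.15 had 2.94 and 1.98 CPM in the mutant and 2.52 and 2.49 CPM in N2. Y62H9A.13, with only 7 and 11 counts in N2, went the other way (log2 fold change 1.65 ± 0.37). Both were singled out after their values were seen, and the low values did not extend to every counted gene of the clone.

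ZK813.3 and ZK813.7, also on X and both on the plus strand, are separated by ZK813.2. ZK813.3 had 45.6 and 38.2 CPM in the mutant and 96.0 and 96.8 CPM in N2 (-1.23 ± 0.11). ZK813.7 had 47.0 and 33.2 CPM in the mutant and 75.4 and 101 CPM in N2 (-1.16 ± 0.17), with replicates further apart in both strains. The other genes of this run were lower by less than the rule asked. ZK813.2 had 8.66 and 7.57 CPM in the mutant, against 11.8 and 14.4 CPM in N2, and ZK813.1 had 25.1 and 23.1 CPM in the mutant, against 35.1 and 37.6 CPM in N2. The strains did not overlap in ZK813.2 and ZK813.1, which were singled out after their values were seen. Non-overlap with N2 higher was met by 30.6% of all genes tested. For ZK813.3 and ZK813.7 it is a condition of the rule.

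The D1086 genes on chromosome V form a longer row. D1086.6 had 16.4 and 17.8 CPM in the mutant and 32.3 and 37.6 CPM in N2 (-1.06 ± 0.12), and D1086.12, with 10 protein-coding genes between them, had 5.82 and 4.77 CPM in the mutant and 10.4 and 12.33 CPM in N2 (-1.12 ± 0.15). Beside D1086.6, D1086.11 had 54.6 and 42.1 CPM in the mutant and 76.9 and 88.0 CPM in N2, and D1086.10 had 47.3 and 40.2 CPM in the mutant and 68.0 and 79.4 CPM in N2. D1086.7, which comes next, differed little, with 20.4 and 20.8 CPM in the mutant and 21.7 and 25.2 CPM in N2. The low values in this row were not shared by every gene in it. D1086.11, D1086.10 and D1086.7 were singled out after their values were seen, and most genes between D1086.6 and D1086.12 are not given here.

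ZK105.6 shares its clone with ZK105.1 and was barely inside the level, with 1.70 and 1.54 CPM in the mutant and 2.99 and 3.07 CPM in N2. Of the 3 protein-coding genes between them only ZK105.5 is given here, with 0.848 and 0.809 CPM in the mutant and 0.772 and 0.798 CPM in N2. Further out on the clone, ZK105.3 ends at 7700814, where ZK105.1 starts at 7713991. ZK105.3 went the other way, with 7.82 and 7.44 CPM in the mutant and 2.75 and 2.40 CPM in N2 (log2 fold change 1.54 ± 0.16). Both ZK105.5 and ZK105.3 were singled out after their values were seen. The genes given for this clone thus did not all go in the same direction. Whether genes in these rows are near-identical copies that share reads was not checked, as no sequence was used here.

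**Figure D4:**
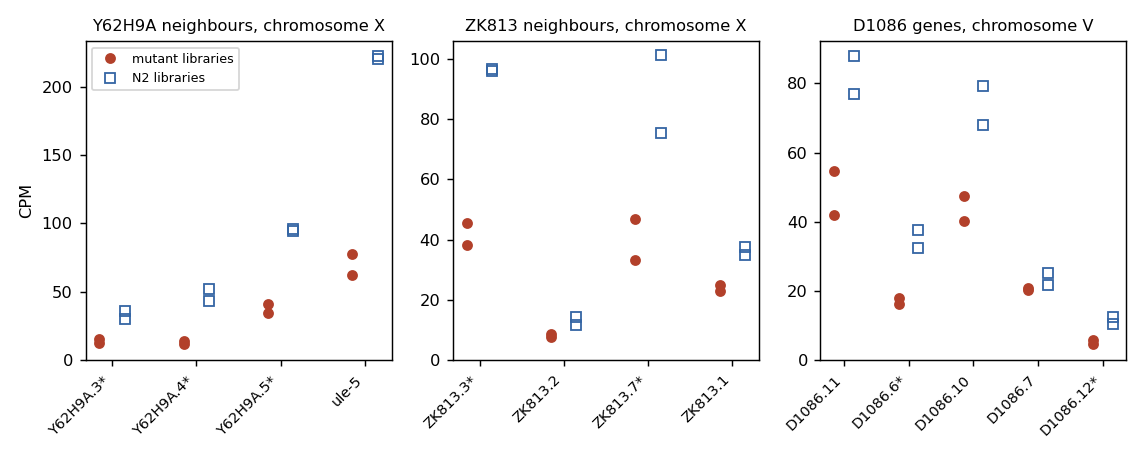
CPM of selected genes on 3 clones in the mutant (red circles) and N2 (blue squares) libraries, 2 points per strain and gene. Members carry an asterisk, and the other genes were chosen after their values were seen. ZK105, the remaining clone with more than 1 member, is not drawn, nor are most of the 10 protein-coding genes between D1086.6 and D1086.12. All 4 genes from Y62H9A.3 to ule-5 and all 4 ZK813 genes are lower in both mutant libraries, which for the members is a condition of the rule. Among the D1086 genes D1086.7 differs little.

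The next protein-coding gene on either side of a member, with members themselves left out, was also lower more often than genes in general. Of 131 such genes that could be tested, 35 were called lower (26.7%) and 17 higher (12.98%), where 13.3% of all genes tested were lower and 13.1% higher. The genes next to the 3434 other sequence-named genes were lower in 13.04% of cases. Leaving out genes that overlap a member gave 30 of 115 lower (26.1%). By chromosome the shares next to a member were 33.3% of 36 on X, 28.1% of 32 on V and 22.2% of 63 on I to IV, against 16.7%, 13.1% and 12.5% next to other sequence-named genes. The median log2 fold change of the 131 genes was only -0.08. Fewer calls were made without mutant replicate 1, with 15.6% lower next to members and 6.15% in general, and without mutant replicate 2, with 11.1% and 3.12%.

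Replicates of a strain also differed in a set direction over the members. Mutant replicate 2 was below mutant replicate 1 in 81 of 100 members, with a median log2 difference of -0.18, and N2 replicate 2 was above N2 replicate 1 in 76, with a median of 0.13. In the other sequence-named genes of at least 3 CPM these shares were 59.4% and 62.3%, with medians of -0.04 and 0.06. In 61 members mutant replicate 2 was the lowest and N2 replicate 2 the highest library, so that the ratio of the rule was taken between mutant replicate 1 and N2 replicate 1. The same held in 21.8% of the other sequence-named genes. In members the rule itself makes a mutant library the lowest and an N2 library the highest, so these shares are not alike. Without mutant replicate 1 the rule took 221 genes, and without N2 replicate 1 it took 204. The part of the replicate differences in the members' values was not tested.

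**Figure D5:**
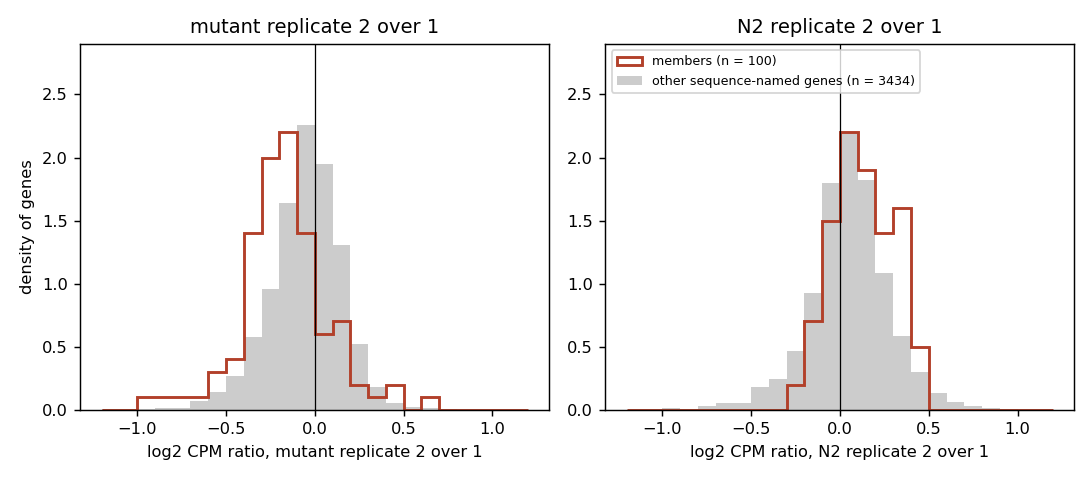
Density of genes by the log2 CPM ratio of replicate 2 over replicate 1, in the mutant (left) and in N2 (right), for the 100 members (red outline) and the 3434 other sequence-named genes (grey). Members lie to the left of 0 in the mutant in 81 of 100 cases and to the right of 0 in N2 in 76.

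The RefSeq gene table of WBcel235 gives 7 members a genetic name, and 145 of the 3434 other genes. Among these members B0238.12 is spi-2 and F53C11.9 is spi-4, of a gene class named for serine protease inhibitors. B0238.12 had 1.70 and 1.01 CPM in the mutant and 3.73 and 3.93 CPM in N2, and F53C11.9 had 1.64 and 1.58 CPM in the mutant and 3.19 and 3.03 CPM in N2. C16D9.1 is listed as pana-1, Y62H9A.5 as stha-3, Y76B12C.8 as nssp-37, F53F8.4 as dbd-17 and C27D6.12 as pugs-1. F53F8.4 had 5.73 and 4.45 CPM in the mutant and 12.0 and 12.26 CPM in N2. C27D6.12 had 2.03 and 2.02 CPM in the mutant, nearly equal, and 3.80 and 3.93 CPM in N2. For the other 93 members no role can be given from the sources used here.

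In 20 members another protein-coding gene overlaps on the opposite strand, and in 2 on the same strand. Overlap was taken between whole gene spans, introns included, and the share among other genes was not counted. The sources used here do not say whether counting used the strand. Reads from exon bases that both genes of such a pair cover cannot be assigned with certainty. F55H12.4 overlaps the last bases of the long gene F55H12.3, which had 46.8 and 49.3 CPM in the mutant, against 37.95 and 35.5 CPM in N2. R09F10.8, with 25.1 and 22.7 CPM in the mutant and 54.01 and 55.7 CPM in N2, overlaps R09F10.1, which had 43.0 and 37.6 CPM in the mutant and 56.8 and 55.5 CPM in N2. F21C10.9, the gene nearest to the ratio from outside, overlaps the member F21C10.10. The overlapping partners of C16D9.1, T16G1.7, T04F8.8 and C27D6.12, also among the genes described above, are C16D9.8, T16G1.2, cutl-11 and C27D6.1.

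The tissue marker lists used here hold only genes with a genetic name, so none of the 100 genes could be on them. Some of those lists moved as well, while few or no markers were called in the hypodermis, neuron and coelomocyte lists. Of 19 sperm markers tested 15 were higher and 0 lower, with summed levels of 851 and 834 CPM in the mutant and 545 and 468 CPM in N2, and 1 of the list was at 0 in all libraries. Of 16 oocyte and eggshell markers 4 were lower and 0 higher, with sums of 8125 and 8485 CPM in the mutant and 10009 and 9167 CPM in N2. Body-wall muscle markers summed to 16780 and 17193 CPM in the mutant and 11207 and 11791 CPM in N2, with 5 of 10 higher and 0 lower. Markers of the intestine, with 5 of 16 higher and 2 lower, summed to 66962 and 71410 CPM in the mutant and 58724 and 39118 CPM in N2. The lists for sperm, body-wall muscle and intestine thus had higher sums in both mutant libraries, as had the pharynx and coelomocyte lists given below. The oocyte list had lower ones, as had the hypodermis and neuron lists given below. Of all genes tested, 13.3% were called lower and 13.1% higher. Hypodermis and cuticle markers, 2 of 12 lower and 1 higher, summed to 11256 and 10414 CPM in the mutant and 11537 and 13824 CPM in N2. Neuron markers, also 2 of 12 lower and 1 higher, summed to 255 and 280.05 CPM in the mutant and 291 and 302 CPM in N2. Of 5 pharynx markers 2 were higher and 0 lower, with sums of 1046 and 1185 CPM in the mutant and 823 and 722 CPM in N2. None of 3 coelomocyte markers was called, with sums of 14.5 and 13.6 CPM in the mutant and 12.33 and 12.1 CPM in N2. The part of these differences between the tissue lists in the members' lower levels was not tested.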

How the data were processed

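Per the labels' protocols, total RNA of 2 samples per strain was prepared with a ScriptSeq v2 kit. The authors deposited raw gene counts, and beside them log2 values that equal the log2 of the scaled count plus 8 within 0.00052. The sources used here do not name the aligner, the counting tool, the build or whether strand was used. No separate cultures are named, so p-values cover only the spread among these samples and that spread may be technical.

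Symbols came from a name table (18778 of 20182 genes). CPM were counts over library totals, and values are given per library or as mean with SD. The test of the deposited counts was edgeR's quasi-likelihood test (version 4.0.16, R 4.3.3) after TMM scaling (factors 0.985 to 1.01) and its default filter, with Benjamini-Hochberg adjustment at 0.05. The SE is the absolute log2 fold change over the square root of F. DESeq2 1.42.0, limma 3.58.1, other scalings and filters, left-out libraries, a replicate block and a lowess length trend (span 0.3) were alternatives. The code was tested on simulated data.

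The members and lists were chosen with earlier results of these data known. Named genes were the 10 members with the largest ratios, the 10 with the highest N2 CPM, adjacent members, and those beside each boundary; others were singled out after their values were seen. The planned comparisons of protein sequences, promoters and product names were not made, since neither sequences nor product names were used here. Exon length is the length of merged exons in the Ensembl annotation of WBcel235. Figures were drawn with matplotlib.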

Additional observations from a re-analysis of the deposited data

How the results depend on the processing

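Over all genes 1858 were called lower and 1821 higher, and with 1 library left out in turn the counts ran from 447 to 2310 lower and from 961 to 2044 higher. The number of members, 100 by the rule, was 31 with a fold of 2, 152 with a level of 1 CPM and 55 with a level of 10 CPM, and 117 to 221 with 1 library left out. TMM-scaled CPM gave 113. Across all these rules 21.3 to 29.1% of the members lay on X, 25.5 to 31.4% on V, and 61.6 to 69.0% had up to 1000 bases of exon. Leaving out a library can only hold or raise the ratio of a gene. The sets share many genes by construction, so their like shares are not an independent check. The median log2 fold change of the members was -0.98 with the length trend removed, with or without the replicate block. The members called lower numbered 96 to 100 with 1 library left out and 100 under the other alternatives. Without mutant replicate 1, B0361.9 and D1005.4 were not called, and without mutant replicate 2, B0361.9, F46C8.3, F53C11.9 and ZK105.6. The direction of the members is set by the rule and says nothing of stability. Deviations of same-numbered libraries from their group means correlated at -0.04 across 13944 genes, so no difference shared by same-numbered libraries was seen. With 2 libraries a strain this is a single contrast, and it cannot exclude that same-numbered samples were handled together. A fit with the replicate block gave 1727 lower and 1792 higher genes. With 2 libraries a strain, differences between weakly counted members cannot be ordered.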
